A study of Mus musculus with 2 samples.

Results

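Lymphatic endothelial cells (LECs) line the vessels that drain tissue fluid and carry leukocytes out of the muscle, and 149 of them were described here among 10891 cells of mouse limb muscle. They were chosen by their own transcripts: a cell was taken as an LEC when it held at least 1 unique molecular identifier (UMI, the count of 1 captured RNA molecule) in at least 3 of 7 genes (Prox1, Mmrn1, Flt4, Reln, Ccl21a, Nts and Lyve1), with Prox1 or Mmrn1 among them, and fewer than 2 UMIs each of the leukocyte gene Ptprc and the fibroblast gene Pdgfra. The study injected aged C57BL/6 mice intraperitoneally with Maraviroc (MVC), an antiviral drug, or with its vehicle DMSO, to ask how the treatment acted on aged muscle. Live mononuclear cells of limb muscle were sorted and profiled in 1 droplet library per treatment, with no genetic modification in either group, and how many mice each library pooled was not given in the sources used here. With 1 library per group, no test of the treatment was possible: each MVC to DMSO ratio compared these 2 libraries, and its 95% interval covered counting error only, not the spread between mice.

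LECs are specified and maintained by the transcription factor Prox1 and grow in response to the ligand VEGF-C through its receptor Flt4 (VEGFR3). Initial lymphatic capillaries, rich in the hyaluronan receptor Lyve1, take up fluid, lipid and cells through loose junctions, and secrete the chemokine Ccl21, which draws dendritic cells and T cells bearing the receptor Ccr7 into the vessel. Larger collecting vessels have tighter junctions, valves and less Lyve1. In skeletal muscle lymphatics are sparse and run with the larger blood vessels.

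The DMSO library held 39150511 UMIs in 5812 barcodes and the MVC library 36063575 in 6047, of which 5437 and 5454 barcodes passed the cell filter (500 genes or more, mitochondrial share up to 10%). The 72 DMSO LECs gave 639234 UMIs, with a median of 7963 per cell (range 2352 to 28985), and the 77 MVC LECs gave 502345, with a median of 5104 (range 890 to 37323). The DMSO LECs were thus the deeper, with medians of 2513.5 against 2119 genes per cell. Of the 9 barcodes that occurred in both libraries, 0 were LECs. Levels below are UMIs summed over the LECs of a library, scaled to 1e+06 UMIs of those cells (CPM, counts per 1e+06).

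Prox1, the master regulator of lymphatic identity, and Mmrn1, which encodes the secreted multimerin 1, were found in nearly every LEC, whereas Ccl21a, Nts and Lyve1 divided them. These genes chose the cells, so their levels against other cells are a description. Prox1 was detected in 68 of the 72 DMSO and 70 of the 77 MVC cells (median 6 and 4 UMIs per cell, highest 78 and 43), and Mmrn1 in 68 and 76 cells (median 15 and 13, highest 49 and 62). Flt4 was found in 63 and 66 cells, and Reln, encoding the secreted glycoprotein reelin, in 67 and 72. Ccl21a was found in 49 and 64 cells, at a median of 27.5 and 54 UMIs and up to 149 and 176. Nts, encoding the peptide neurotensin, was found in 34 and 50 cells, at a median of 0 and 3 UMIs and up to 165 and 202. Lyve1 was found in 53 and 57 cells, at a median of 15 and 7 UMIs and up to 111 and 52. The LECs carried 97.5% of all DMSO and 94.8% of all MVC Mmrn1 UMIs, and 88.0% and 95.8% of those of Ccl21a, but only 28.6% and 29.1% of those of Flt4, which 21.3% and 20.9% of blood endothelial cells also expressed. In B cells, which should lack them, Ccl21a and Nts were each detected in 0 of 84 DMSO and 0 of 37 MVC cells.

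**Figure D1:**
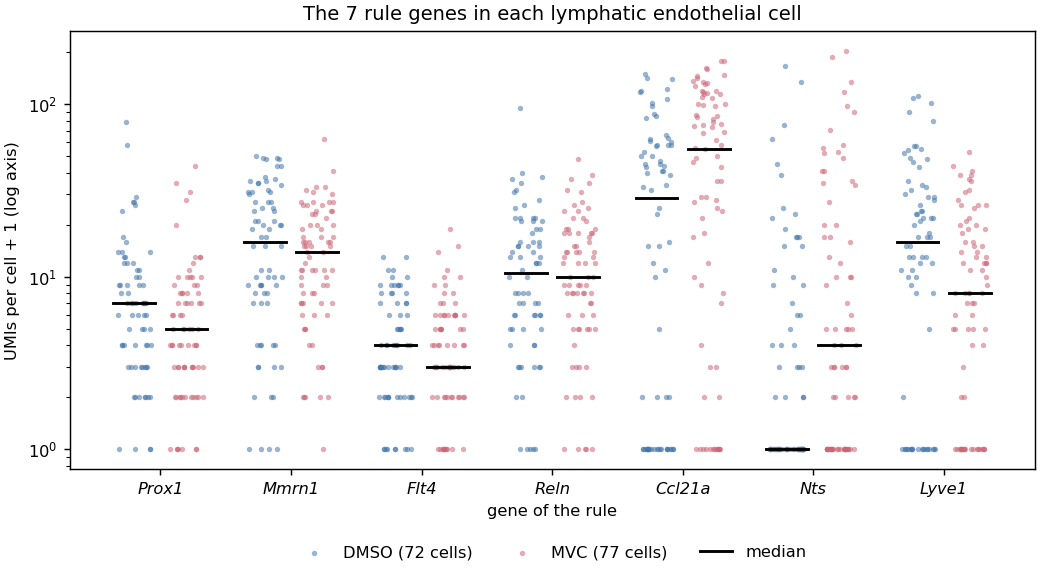
UMIs per cell plus 1 (log axis) of the 7 genes that chose the LECs, with 1 point per cell for the 72 DMSO (blue) and 77 MVC (red) cells and a bar at the median. Prox1 and Mmrn1 were above 0 in nearly all cells, while Ccl21a, Nts and Lyve1 each had a band of cells at 0; the Ccl21a median was 27.5 UMIs in DMSO and 54 in MVC.

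In the mouse GRCm38 annotation (GENCODE vM21), Prox1 lies on chromosome 1 from 190118035 to 190170714, Ccl21a on chromosome 4 from 42772860 to 42773993, Reln on chromosome 5 from 21884454 to 22344702, and Mmrn1 on chromosome 6 from 60924976 to 60989378. Lyve1 lies on chromosome 7 from 110850607 to 110863239, Nts on chromosome 10 from 102481756 to 102490486, and Flt4 on chromosome 11 from 49609263 to 49652739. Mmrn1 and Flt4 are on the plus strand and the other 5 on the minus strand. Ccl21a has near-identical copies in the mouse genome, so that its level is uncertain as that of a single gene; the copy Ccl21b had 0 UMIs in both libraries' LECs.

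Most LECs were far inside the limit of 3 genes. All 7 genes were found in 21 DMSO and 28 MVC cells, 6 in 22 and 28, 5 in 15 and 10, 4 in 6 and 8, and 3 in 8 and 3. Just outside it, 22 DMSO and 17 MVC cells held 2 of the genes with Prox1 or Mmrn1 among them, at median depths of 10945 and 10001 UMIs, against 9497 and 3892 for the members with 3 genes. A further 2 DMSO and 5 MVC cells met the gene count but were left out for Ptprc or Pdgfra.

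The label was checked against other markers; of those named here, the choice used Ptprc only. When the kept cells of both libraries were clustered together into 26 groups, a single cluster of 153 cells held 143 of the 149 LECs (67 of 72 in DMSO and 76 of 77 in MVC). The clustering did not leave out the 7 choosing genes, so this overlap is a description and no independent check. Of 28 further lymphatic identity genes, 24 had at least 50 UMIs in LECs, a filter passed through the LECs themselves, so that their count is a description: 15 were at least 4-fold higher in LECs than in blood endothelial cells in both libraries, against 4.36% of the 3854 genes compared. Of 14 leukocyte markers, 0 reached 20 UMIs, and Ptprc, Cd3e, Cd79a and Nkg7 were at 0 in both libraries; their summed level was 18.8 CPM in DMSO and 19.9 CPM in MVC LECs. Erythrocyte genes summed to 15.6 and 25.9 CPM, with Hbb-bt at 0. The valve gene Foxc2 had 17 DMSO and 7 MVC UMIs, and Cldn11 had 18 and 18.

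Against blood endothelial cells (2264 in DMSO and 2001 in MVC, chosen by at least 3 of Pecam1, Cdh5, Flt1, Kdr, Cldn5 and Egfl7, whose levels in this contrast are therefore a description, with 0 UMIs of Prox1 and Mmrn1 by definition), the LECs carried 168 genes at least 4-fold higher in both libraries. The highest outside the 7 choosing genes was Slc45a3, encoding a membrane transporter, with 61 DMSO and 36 MVC UMIs in LECs and 0 in blood endothelial cells. Ackr2, a decoy receptor that removes inflammatory CC chemokines, stood at 62.6 and 93.6 CPM in LECs against 0.181 and 0.330 CPM in blood endothelial cells, 346-fold (95% interval 89.7 to 2955) and 283-fold (91.2 to 1423). The guidance molecule Sema3d was 783-fold (444 to 1524) and 283-fold (173 to 493) higher, and the transcription factor Tbx1 163-fold (74.9 to 421) and 452-fold (119 to 3835). Il7, the T cell survival cytokine, was at 117 and 155 CPM, 130-fold (66.8 to 282) and 101-fold (56.6 to 193) above blood endothelial cells, and Maf, a transcription factor, was 95.1-fold (76.4 to 120) and 48.2-fold (39.2 to 59.7) higher. The hydrogen peroxide producing oxidase Duox2, at 43.8 and 73.7 CPM, was 242-fold (61.1 to 2098) and 223-fold (70.6 to 1130) higher.

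Among the remaining leaders in this contrast, chosen by the lower of the 2 libraries' ratios, were Sh3gl3, Apba2, Slc38a4, Dtx1, Wdr17, Samsn1, Ston2, Glis1, Fgf12, Gpm6a, Reep1 and Ralgps2, at 49.4-fold or more in the library with the smaller ratio. These folds are against all blood endothelial cells pooled. In the venous ones alone, Gpm6a was at 34.8 and 77.4 CPM, against 283 and 402 CPM in LECs. Wdr17 was at 10.6 and 27.8 CPM there, against 314 and 372 CPM in LECs. Slc38a4 was at 28.8 and 0 CPM, against 247 and 177 CPM. Sh3gl3, Apba2, Dtx1, Glis1 and Fgf12 were at 0 CPM in the venous cells of both libraries. Of the DMSO Samsn1 UMIs, 112 of 120 lay in the set of 7 cells described further on. Within the group Gpm6a, a membrane glycoprotein, was found in 60 DMSO and 55 MVC cells, Wdr17 in 49 and 51, and the adaptor Sh3gl3 in 50 and 54. Abundant genes also set the LECs apart: Fth1, the ferritin heavy chain that stores iron, was at 7529 CPM in DMSO and 7047 CPM in MVC LECs against 1411 and 1220 CPM in blood endothelial cells, and Cp, the ferroxidase ceruloplasmin, at 918 and 1184 CPM against 101 and 154 CPM. Igfbp5, which binds insulin-like growth factors, was at 1663 and 2773 CPM against 59.6 and 124 CPM. Fth1 and Igfbp5 were picked out after their values were seen.

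Of 22 listed blood endothelial genes, 17 had at least 1000 UMIs in blood endothelial cells, where they are high, so their count is a description: 9 were at least 4-fold lower in LECs in both libraries, where 5.38% of the 3404 genes compared were. Flt1, the VEGF-A decoy receptor, was at 147 and 221 CPM in LECs against 2936 and 2671 CPM. The capillary fatty acid transporter Cd36 was at 361 and 267 CPM against 3052 and 1630 CPM, and the water channel Aqp1 at 261 and 207 CPM against 2539 and 1627 CPM. Among the 15 genes that were lowest relative to blood endothelium were the haemoglobins Hba-a1, Hba-a2, Hbb-bs and Hbb-bt, the mural cell genes Rgs5, Tagln and Acta2, and the cytokine Tnf, with 0 DMSO and 1 MVC UMI in LECs. The others were Rapgef4, Rundc3b, Cacnb2, Slc28a2, Rrad, Slc1a1 and Tcim. Of the pan-endothelial genes, 0 of 18 were 4-fold higher in LECs, where 4.36% of all genes compared were, and 3 of 20 were 4-fold lower, where 5.38% were. Cdh5 (VE-cadherin) was at 652 and 512 CPM in LECs against 1185 and 1017 CPM.

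**Figure D2:**
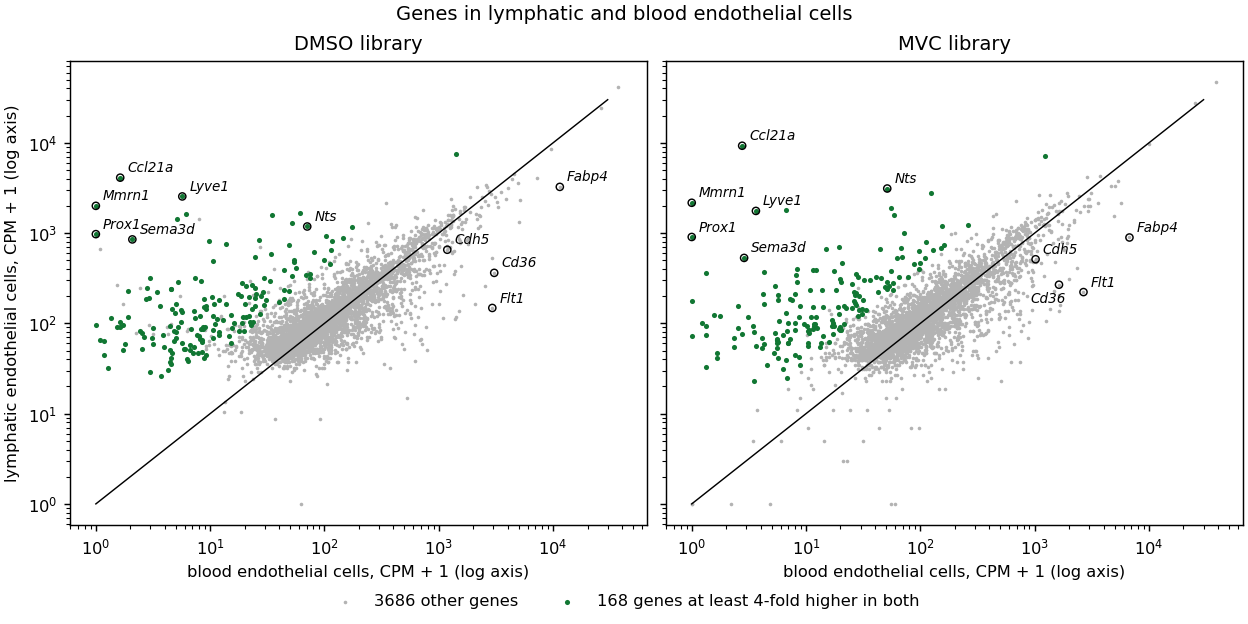
CPM plus 1 in LECs (y axis, log) against blood endothelial cells (x axis, log) for 3854 genes in the DMSO library (left) and the MVC library (right), with the line of equality; green points are the 168 genes at least 4-fold higher in LECs in both libraries and named genes are ringed. Prox1 and Mmrn1 lie at 0 in blood endothelial cells by the choice of cells, Ccl21a lies farthest above the line among the named genes with a blood value above 0, and Flt1, Cd36 and Fabp4 lie below it.

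The LECs of both libraries fell into Lyve1-positive and Lyve1-negative cells. A set of 7 DMSO cells described further on is left out of this comparison. Of all 72 DMSO LECs, 19 (26.4%) had 0 Lyve1 UMIs, 46 others had at least 1, and the 7 left out had 19 to 107. Of the 77 MVC LECs, 20 (26.0%) had 0 and 57 had at least 1. The Lyve1-negative cells were not the shallower ones, with median depths of 8786 UMIs in DMSO and 5221 in MVC against 6890.5 and 5104 in Lyve1-positive cells. A cell without Lyve1 had to hold at least 3 of the other 6 choosing genes, so the levels of those genes on either side of the split are a description. Ccl21a was found in 44 of 46 DMSO and 55 of 57 MVC Lyve1-positive cells, at a median of 49 and 76 UMIs, and in 5 of 19 and 9 of 20 Lyve1-negative cells, at a median of 0 in both. Nts was found in 11 of 19 and 15 of 20 Lyve1-negative cells and in 23 of 46 and 35 of 57 Lyve1-positive ones. The highest cells for Nts were Lyve1-negative, with 165 UMIs in DMSO and 202 in MVC against 44 and 133 among Lyve1-positive cells. Mmrn1 and Reln were also lower in the Lyve1-negative cells of both libraries, at 673 and 767 CPM for Mmrn1 against 3320 and 2596 CPM, and at 450 and 682 CPM for Reln against 2299 and 2166 CPM. Prox1 was not, at 938 and 1348 CPM in Lyve1-negative against 787 and 766 CPM in Lyve1-positive cells.

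**Figure D3:**
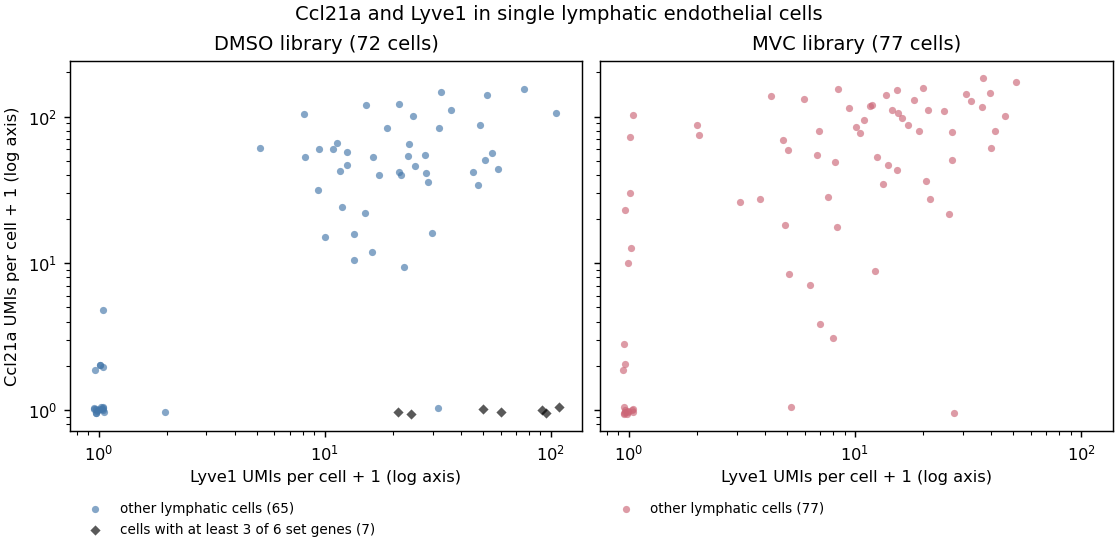
Ccl21a against Lyve1, UMIs per cell plus 1 on log axes, in the 72 DMSO LECs (left) and the 77 MVC LECs (right), with 1 point per cell shifted slightly to part those at 0. Most cells with Lyve1 held Ccl21a, but 7 DMSO cells (black diamonds) had 19 to 107 Lyve1 UMIs and 0 of Ccl21a. Other cells with Lyve1 and 0 of Ccl21a included a DMSO cell with 32 Lyve1 UMIs and an MVC cell with 25.

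Genes ranked by this split in the DMSO library alone were then read in the MVC library. Of the 20 genes highest in the DMSO Lyve1-negative cells, 11 had at least 30 UMIs in MVC, and 8 of these were at least 2-fold higher in the MVC Lyve1-negative cells while 0 of the 11 were 2-fold lower, where 7.45% of the 3035 genes with 30 UMIs were 2-fold higher. Of the 9 genes under that minimum in MVC, Myo1e (1 and 28 UMIs) stood at 0.115-fold and Tnc (1 and 11 UMIs) at 0.294-fold. Among the 8 were Plat, the tissue plasminogen activator (12.6-fold in DMSO and 30.8-fold in MVC), Procr, the endothelial protein C receptor (6.95-fold and 14.7-fold), Pcdh7 (11.8-fold and 8.77-fold), Apoe (14.4-fold and 3.87-fold), the protease Adamts9 (5.35-fold and 2.91-fold) and Fabp4 (7.5-fold and 2.27-fold). For Procr, the DMSO Lyve1-negative cells held 359 UMIs and the compared Lyve1-positive cells 89. The split kept the 5 DMSO and 1 MVC LECs outside the main cluster. A DMSO cell outside it, with 8751 UMIs and 1 of Lyve1, held 48 of the 89 Procr UMIs. Another, with 8300 UMIs and 0 of Lyve1, held 26 of the 359. No values of the split without these cells are given. The 7 DMSO cells left out, which all held Lyve1, had 3, 173, 16, 99, 0, 86 and 0. The DMSO ratio of Procr thus depends on leaving them out. The fatty acid transporter Cd36, 8.91-fold higher in DMSO, stood at 0.601-fold in MVC and Ccl7, 8.73-fold higher in DMSO, at 0.774-fold. In the MVC LECs 67.7% of the Plat, 52.6% of the Pcdh7 and 44.9% of the Fabp4 UMIs lay in a single cell each.

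Of the 20 genes highest in the DMSO Lyve1-positive cells, 17 had 30 UMIs in MVC, and 15 of these were at least 2-fold higher in the MVC Lyve1-positive cells, where 17.2% of the same 3035 genes were. Piezo2, a mechanically gated ion channel, had 118 DMSO and 191 MVC UMIs in Lyve1-positive cells and 0 in Lyve1-negative cells of both. It was also at 0 in each of the 7 DMSO cells left out, which all held Lyve1. Tppp3 had 33 and 63 UMIs in Lyve1-positive cells and 0 in Lyve1-negative cells, and the guanylate cyclase subunit Gucy1a2 had 51 and 33 against 0. Syne1, a nuclear envelope protein, was at 707 and 1126 CPM in Lyve1-positive against 95.4 and 92.7 CPM in Lyve1-negative cells, and the potassium channel Kcnn3, Plcl1 and the collagen Col23a1 were likewise higher. The matrix protein Mgp went the other way: it had 2 Lyve1-negative and 70 Lyve1-positive UMIs in DMSO but 106 and 3 in MVC, with 81.9% and 95.4% of each library's LEC UMIs in a single cell. The metallothionein Mt1 likewise had 3 and 190 UMIs in DMSO but 36 and 65 in MVC. In MVC this was 303 CPM in Lyve1-negative and 169 CPM in Lyve1-positive cells, a ratio of 1.79 (1.16 to 2.73).

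**Figure D4:**
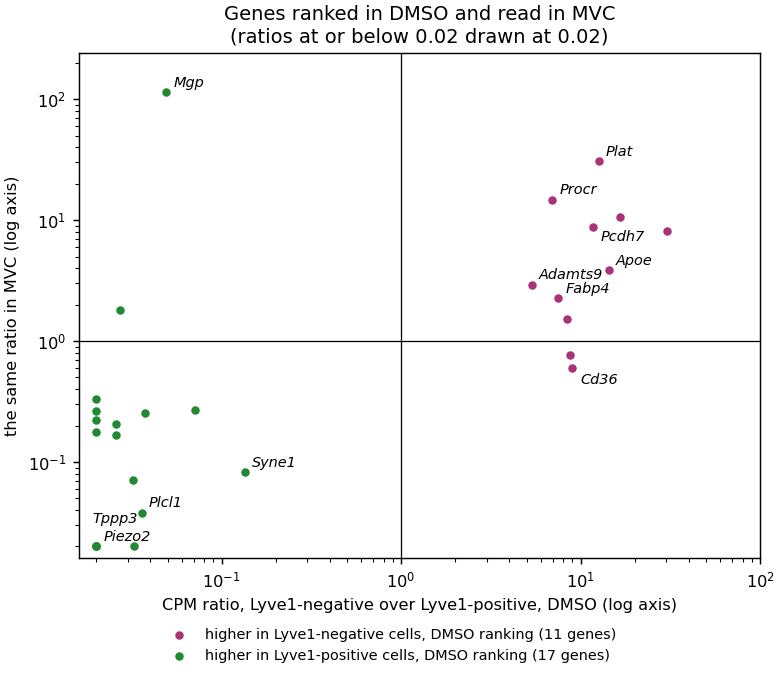
CPM ratio of Lyve1-negative to Lyve1-positive LECs in DMSO (x axis, log) and MVC (y axis, log) for the genes ranked in DMSO that had at least 30 UMIs in MVC, with lines at a ratio of 1. Of 11 genes ranked higher in Lyve1-negative cells (purple) 8 lay 2-fold or more above 1 in MVC, and of 17 ranked higher in Lyve1-positive cells (green) 15 lay 2-fold or more below 1, with Mgp and Mt1 on the opposite side.

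In the DMSO library 7 LECs stood apart. They were recognised, after their values were seen, by at least 3 of 6 genes: the scavenger receptor Marco, Fgf14, the adhesion molecule Sdk1, the integrin Itga2b, the oxidase Cyp1b1 and the matrix protein tenascin C (Tnc). By the same genes 0 MVC LECs were recognised. The genes were noticed in the DMSO library, so this absence is partly built into the choice and is a description. The 7 cells made up 9.72% of the DMSO LECs but 19.6% of their UMIs, at 9769 to 27270 UMIs per cell (median 17424) against a median of 7388 in the other 65 cells. Their Prox1 counts were 7, 28, 11, 78, 26, 12 and 26 UMIs, with a median of 26 against 5 in the others, and their Lyve1 counts were 19, 89, 56, 100, 22, 107 and 48 UMIs, with a median of 56 against 12. All 7 had 0 UMIs of Ccl21a and of Nts, where the other DMSO LECs had a Ccl21a median of 38. Marco was confined among the LECs to 3 of them, at 62, 16 and 51 UMIs, and Tnc reached 188, 315 and 317 UMIs in 3 of them. The alarmin Il33 was found in all 7, at 3 to 160 UMIs, and in 15 of the other 65 cells. Sdk1, Itga2b and Cyp1b1 were in all 7 cells, and in 3, 1 and 1 of the other DMSO LECs.

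Genes with higher levels in these 7 cells than in the other DMSO LECs also included the guidance receptor Robo1 (60 against 1 UMI), the transcription factor Zeb2 (108 against 8), the cytokine receptor chain Csf2rb (56 against 7), coagulation factor F8 (122 against 31), the receptors Lifr (113 against 30) and Lepr (102 against 33), the hyaluronidase Cemip2 (1007 against 370), complement C3 (52 against 13) and Cfb (53 against 23), and the metallothioneins Mt1 (418 against 193) and Mt2 (207 against 64). Each of these genes had at least 50 UMIs in the 7 cells, where they are high, and they were ranked by this same contrast. Their levels are therefore a description. All 7 cells lay in the main LEC cluster and 0 of them was called a doublet. Over all kept cells the libraries also differed in genes known from lymphoid tissue: Cxcl13 had 4582 UMIs in DMSO and 574 in MVC, Glycam1 41 and 5, Cr2 268 and 102, Fcer2a 204 and 64, Ccr7 1009 and 361, Cd79a 947 and 520, and Cd3e 471 and 146, while Ccl19 had 1143 and 1641. Of the 41 DMSO UMIs of Glycam1, 31 lay in 2 LECs, 4 of them among the 7 cells. Their part in the presence of the 7 cells was not tested. Ratios below are therefore also given without these 7 cells, and, where it changes them, for the 59 DMSO and 75 MVC LECs left after also removing called doublets (1 LEC per library) and the 6 LECs outside the main cluster.

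LECs made up 1.32% of the kept DMSO cells (exact Clopper-Pearson 95% interval 1.04 to 1.66) and 1.41% of the kept MVC cells (1.12 to 1.76). The difference was 0.0875 percentage points (Newcombe interval of counting error -0.353 to 0.530). Among endothelial cells only, LECs were 3.08% in DMSO and 3.71% in MVC, a difference of 0.623 points (-0.446 to 1.72). When every cell was first thinned to 2000 UMIs, which left out shallower cells, 60 of 4990 DMSO and 77 of 4473 MVC cells met the rule, 1.2% and 1.72%, a difference of 0.519 points (0.0354 to 1.02). Only 75 of the MVC LECs had that depth, so some of these 77 cells were not LECs before thinning. Thinning also lowers the counts of Ptprc and Pdgfra, which the rule limits. These intervals treat cells as independent draws and make no call between the treatments, which had 1 library each.

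Between the libraries, the summed levels of Ccl21a and Nts were higher and that of Lyve1 lower in MVC LECs. These 7 genes also chose the cells of both libraries, so their ratios are a description. Ccl21a was at 4106 CPM in DMSO and 9271 CPM in MVC, a ratio of 2.26 (2.15 to 2.37), and 1.82 (1.73 to 1.90) without the 7 cells. Nts was at 1181 and 3113 CPM, a ratio of 2.64 (2.42 to 2.88), and 2.12 (1.94 to 2.31) without them; 21.9% of its DMSO and 12.9% of its MVC UMIs lay in a single cell. Lyve1 was at 2544 and 1758 CPM, a ratio of 0.691 (0.636 to 0.751), and 0.762 (0.698 to 0.833) without them. The share of cells with a UMI was 68.1% and 83.1% for Ccl21a, 47.2% and 64.9% for Nts and 73.6% and 74.0% for Lyve1, and after thinning to 2000 UMIs 65.3% and 78.7%, 38.9% and 56.0%, and 70.8% and 68.0%. Within Lyve1-positive cells Ccl21a was at 8045 and 11518 CPM, a ratio of 1.43 (1.36 to 1.5), and within Lyve1-negative cells at 42.4 and 2005 CPM (8 UMIs in 5 cells and 238 UMIs in 9 cells). Nts was at 2639 and 8561 CPM in Lyve1-negative cells, a ratio of 3.24 (2.91 to 3.62), and at 790 and 1428 CPM in Lyve1-positive cells, a ratio of 1.81 (1.56 to 2.11). Prox1 (0.93, 0.822 to 1.05) and Mmrn1 (1.08, 0.997 to 1.17) had intervals that held 1. Without the 7 cells their ratios lay on the other side of 1, at 1.07 (0.938 to 1.23) and 0.921 (0.848 to 1.001). Flt4 (1.29, 1.09 to 1.54) and Reln (1.26, 1.15 to 1.39) had intervals above 1. Without the 7 cells these ratios were 1.15 (0.960 to 1.37) and 1.12 (1.02 to 1.23).

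Over all 3854 genes with at least 50 UMIs, 114 (2.96%) were at least 2-fold higher and 191 (4.96%) at least 2-fold lower in MVC LECs; without the 7 cells, 87 were higher and 87 lower of 3560. The named genes were the 12 highest and 12 lowest ratios whose interval excluded 1 and of which no single cell held over 25% of the UMIs. The highest was Cd74, the invariant chain of MHC class II, with 6 UMIs in 5 DMSO cells and 70 UMIs in 20 MVC cells, at 9.39 and 139 CPM, a ratio of 14.8 (6.49 to 41.8). The predicted gene Gm17268 followed at 10.0 (4.79 to 24.2), the ephrin ligand Efna5 at 5.83 (3.52 to 10.1), the methyltransferase Smyd3 at 4.12 (2.49 to 7.08) and the TNF family ligand Eda at 3.82 (2.66 to 5.58). Pkhd1l1 went from 36 UMIs in 20 cells to 107 UMIs in 42 cells (3.78, 2.57 to 5.68). The others were Tex14, Tnks, Rhou, Gsn, Ptn and St7, between 3.39 and 3.82. Without the 7 cells these 12 ratios were 2.81 to 17.9 and each interval still excluded 1. The 12 genes were picked with intervals excluding 1 and had 0 to 4 UMIs each in the 7 cells. Leaving those cells out could therefore change little, and the result is a description. In the remaining cells Gsn was at 1.87 (1.22 to 2.93), and Cd74 had 0 DMSO UMIs. In blood endothelial cells Gsn (2.57, 2.43 to 2.71) and the growth factor Ptn (6.19, 3.94 to 10.2) were also higher in MVC, while Cd74 was at 12.2 and 15 CPM.

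The 12 lowest were tied to the 7 DMSO cells to differing extents. Sdk1 had 108 UMIs in DMSO, 102 of them in the 7 cells, and 0 in MVC, at least 28.3-fold lower against a floor of 3 counts in the MVC LECs. Cemip2 was at 2154 and 422 CPM (ratio 0.196, 0.169 to 0.227), with 1007 of 1377 DMSO UMIs in the 7 cells and a ratio of 0.586 (0.493 to 0.696) without them. For Jam3, a junctional adhesion molecule, the ratio was 0.197 (0.0942 to 0.374), the interval held 1 without them (0.536, 0.233 to 1.16), and it excluded 1 in the remaining cells (0.392, 0.149 to 0.929). The other 9 stayed under 0.30 without the 7 cells: Clu, the chaperone clusterin, was in 20 DMSO and 4 MVC cells at 501 and 35.8 CPM, with ratios of 0.0716 (0.0419 to 0.115) in all LECs, 0.136 (0.0785 to 0.224) without them and 0.163 (0.0916 to 0.275) in the remaining cells. The proteoglycan Srgn was in 20 and 5 cells (0.108, 0.0628 to 0.175, and 0.181 without them) and the disulfide isomerase Pdia5 in 24 and 2 cells (0.0489, 0.00577 to 0.186, and 0.0499 without them; 0.103, 0.0117 to 0.428 in the remaining cells). The remaining 6 were complement factor Cfb, the cytokine receptor gamma chain Il2rg, the prohormone processing enzyme Cpe, Cmah, Tmem176a and Tmem176b, whose ratios were 0.0335 to 0.171 in all LECs, 0.0890 to 0.298 without them and 0.0891 to 0.259 in the remaining cells. Tmem176a and Tmem176b are overlapping neighbours, and reads could be split between them.

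**Figure D5:**
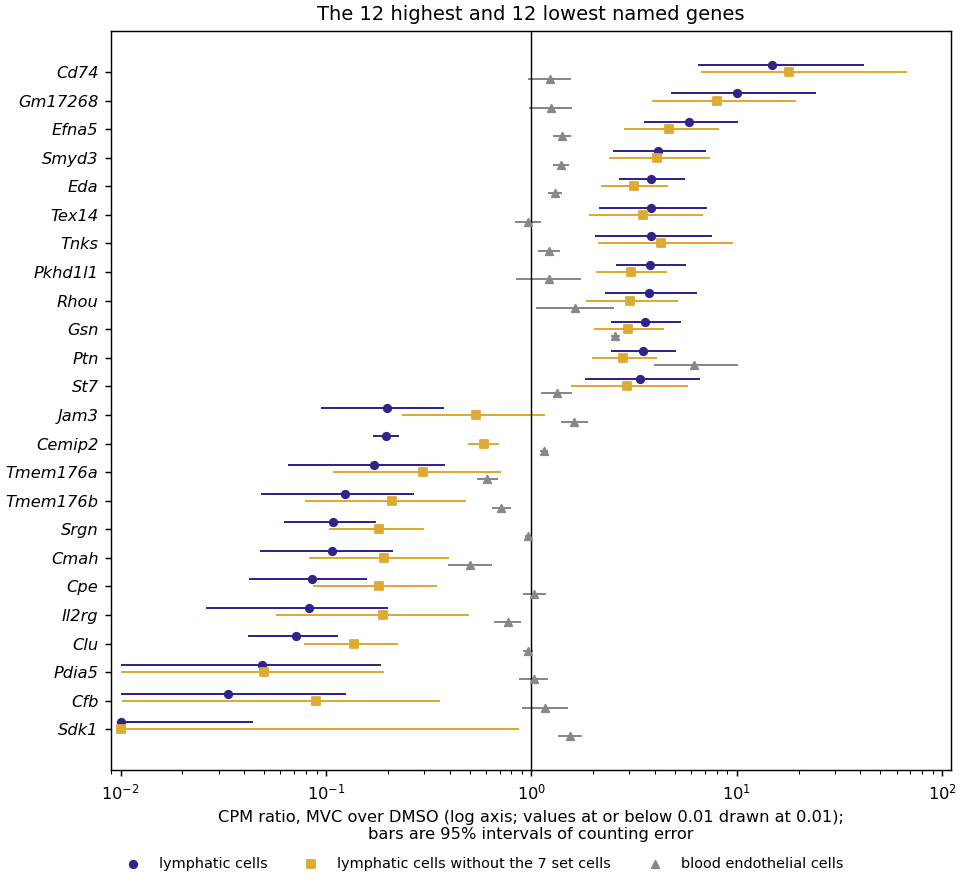
CPM ratio of MVC to DMSO (log axis) of the 12 highest and 12 lowest named genes in all LECs (dark circles), in LECs without the 7 DMSO cells (yellow squares) and in blood endothelial cells (grey triangles); bars are 95% intervals of counting error and ratios at or below 0.01, Sdk1 included, are drawn at 0.01. The 12 upper genes, picked with intervals excluding 1 and with few UMIs in the 7 cells, kept intervals above 1 without them. The Cemip2 and Jam3 ratios moved towards 1, and the blood endothelial ratios other than those of Gsn and Ptn were 0.503 to 1.62.

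Gene lists by role were read against all 6528 genes with at least 20 UMIs in LECs, of which 13.9% were at least 1.5-fold higher and 16.1% at least 1.5-fold lower in MVC, with a median log2 ratio of -0.01; in blood endothelial cells 6.11% of the same genes were higher and 1.7% lower. Of 30 chemokine, adhesion and leukocyte transit genes, 7 were higher and 10 lower (median -0.19; 0.08 and 7 each way without the 7 cells). Ccl2, a monocyte chemoattractant, was at 352 and 977 CPM (2.78, 2.37 to 3.27; 2.04 in the 59 and 75 remaining cells), found in 16 DMSO (22.2%) and 23 MVC (29.9%) cells beside 5.95% and 16.2% of B cells, and in blood endothelial cells its ratio was 1.53. Its relative Ccl7 was at 156 and 289 CPM (1.85, 1.42 to 2.40), and the adhesion receptor Icam1 at 824 and 1198 CPM (1.45, 1.29 to 1.64; 1.24 without the 7 cells). Cxcl2 had 22 UMIs in 9 DMSO and 147 in 9 MVC cells, 69 of them in a single cell. All 430 Ccl20 UMIs of the DMSO LECs lay in a single cell. The Ccr7 ligand Ccl19 was almost absent, with 3 and 1 UMIs, and the cytokine Il7 stood at a ratio of 1.32 (0.951 to 1.84).

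Several lower ratios of this list rested on few cells. Il33 had 449 DMSO UMIs, 413 of them in the 7 cells, and 43 in MVC: its ratio was 0.122 (0.0870 to 0.167), and 1.22 (0.767 to 1.96) without them. P-selectin, Selp, which tethers leukocytes to venous endothelium, had 500 UMIs in 15 DMSO cells and 69 in 6 MVC cells (0.176, 0.134 to 0.226), but 148 of the DMSO UMIs lay in 1 cell outside the main cluster, and the ratio in the 59 and 75 remaining cells was 1.38 (0.943 to 2.03). Of the 46 DMSO UMIs of the venous receptor Ackr1, 23 also lay in a single cell outside that cluster. Vcam1 stood at 0.580 (0.471 to 0.711), at 1.0 without the 7 cells and at 1.90 (1.41 to 2.59) in the remaining cells.

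Of the chemokine receptors listed, Ccr1, Ccr2, Ccr3 and Ccr7 had 0 UMIs in all 149 cells, which allows a share of up to 2.01% of LECs with a UMI for each. In the same libraries Ccr1 was found in 51 of 105 DMSO (48.6%) and 54 of 144 MVC (37.5%) macrophages, and Ccr2 in 32 (30.5%) and 35 (24.3%), at median depths of 12678 and 9716 UMIs against 7963 and 5104 in the LECs. Cx3cr1 reached 20 UMIs in LECs, with 11 UMIs in 7 DMSO and 21 in 10 MVC cells.

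The VEGF-C, angiopoietin and adrenomedullin pathway differed little. Of 22 genes, 1 was at least 1.5-fold higher and 2 lower (median -0.12). Kdr, the main VEGF receptor, was at 330 and 320 CPM (0.971, 0.786 to 1.2), and the receptor tyrosine kinases Tie1 (1.01, 0.742 to 1.38) and Tek (0.936, 0.667 to 1.31) were close to 1. The co-receptor Nrp2 was at 657 and 476 CPM (0.724, 0.615 to 0.851; 0.908, 0.755 to 1.09 in the remaining cells). The adrenomedullin receptor Calcrl was at 393 and 468 CPM (1.19, 0.993 to 1.43; 1.41, 1.15 to 1.72 without the 7 cells) and its partner Ramp2 at 271 and 243 CPM (0.897, 0.706 to 1.14). The mechanosensor Piezo1 was at 410 and 551 CPM (1.35, 1.13 to 1.6; 1.19 without the 7 cells). The higher gene was Nrp1, with 32 of its 39 MVC UMIs in the deepest cell, which was called a doublet, and the lower 2 were Emilin1 (21 and 2 UMIs) and Fat4 (68 and 17 UMIs; 0.725, 0.365 to 1.41 without the 7 cells).

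Of 27 lymphatic identity genes outside the rule, 1 was higher and 6 lower in MVC (median -0.05). Podoplanin, Pdpn, was at 546 and 657 CPM (1.2, 1.03 to 1.40), Fgl2 at 1591 and 1913 CPM (1.2, 1.1 to 1.31; 1.01 without the 7 cells) and Thy1 at 183 and 207 CPM (1.13, 0.860 to 1.49). Sema3a, a secreted guidance cue known from lymphatic valves, was at 1613 and 386 CPM (0.239, 0.204 to 0.279), with 472 of 1031 DMSO UMIs in the 7 cells; without them the ratio was 0.355 (0.300 to 0.419). The related Sema3d was at 849 and 530 CPM (0.623, 0.536 to 0.723; 0.767 without the 7 cells). The transcription factor Foxc1, at 0.304 (0.164 to 0.530), and Lbp, the lipopolysaccharide binding protein, at 0.601 (0.470 to 0.764), were also lower, and Lbp was lower in blood endothelial cells too, at 0.383. Of 17 genes known to vary between capillary, collecting, valve and immune subtypes, 3 were higher and 4 lower (median 0.07), and Piezo2 was at 185 and 380 CPM (2.06, 1.63 to 2.61; 1.66, 1.31 to 2.10 without the 7 cells).

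Lipid uptake and scavenger genes were lower on balance, with 0 higher and 8 lower of 16 (median -0.58), and with 0 and 5 without the 7 cells (median -0.16). Fabp4, a fatty acid binding protein, was at 3246 and 892 CPM (0.275, 0.248 to 0.304; 0.255 without the 7 cells and 0.267 in the remaining cells), and in blood endothelial cells its ratio was 0.590. It was found in 32 DMSO and 19 MVC LECs, and in 22.6% and 10.8% of B cells, which should lack it. Gpihbp1, which carries lipoprotein lipase, was at 197 and 91.6 CPM in 44 and 29 cells (0.465, 0.324 to 0.656; 0.408 in the remaining cells), and in blood endothelial cells at 0.705. Abca1 (0.685, 0.593 to 0.791) and Apoe (0.622, 0.492 to 0.784) were at 0.974 and 1.02 without the 7 cells. The caveolar genes Cav1 (1.45, 1.23 to 1.71; 1.19 without the 7 cells) and Cavin2 (1.23, 1.09 to 1.39; 1.03) were not lower.

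Of 13 junction and barrier genes, 0 were higher and 4 lower (median -0.31; -0.06 without the 7 cells): Esam (43 and 22 UMIs), Jam2 (27 and 14), Jam3 (71 and 11) and Gja4 (21 and 4). Claudin 5, Cldn5, was at 828 and 731 CPM (0.883, 0.771 to 1.01), Cdh5 at a ratio of 0.784 (0.669 to 0.918; 1.05 without the 7 cells) and Pecam1 at 679 and 476 CPM (0.701, 0.596 to 0.822; 0.689 without them). The gap junction gene Gja1 was at 573 and 603 CPM (1.05, 0.902 to 1.23). Pan-endothelial genes had 0 higher and 2 lower of 19 (median -0.20), Plvap at 0.292 (1.02 in the remaining cells) and Esam at 0.651. Eng, a TGF-beta co-receptor, was at 0.669 (0.533 to 0.838). Blood endothelial genes had 4 higher and 7 lower of 16 (median -0.37, but 0.20 in the remaining cells), and Flt1 had 73.0% of its MVC UMIs in a single cell.

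Antigen presentation genes had 5 higher and 0 lower of 12 (median 0.28). Besides Cd74, the class II genes H2-Aa (1 UMI in 1 DMSO cell and 29 UMIs in 14 MVC cells), H2-Ab1 (4 UMIs in 4 cells and 16 in 9) and H2-Eb1 (2 UMIs in 1 cell and 19 in 10) were more abundant in MVC, as was Nlrc5, the activator of class I genes, at 45.4 and 89.6 CPM (1.97, 1.21 to 3.27). After thinning to 2000 UMIs, 1.39% of DMSO and 22.7% of MVC LECs held a Cd74 UMI. H2-Aa was at 1.56 CPM in DMSO and 57.7 CPM in MVC LECs, beside 5.43 and 8.59 CPM in blood endothelial cells; the ratio of LECs to blood endothelial cells was 0.288 (0.00718 to 1.67) in DMSO and 6.72 (4.23 to 10.4) in MVC. The class I genes H2-D1 (1.14, 1.0 to 1.30), H2-K1 (0.871, 0.762 to 0.995) and B2m (0.812, 0.717 to 0.920) were at 1.30, 1.18 and 1.18 without the 7 cells. Macrophages, a source of class II RNA, numbered 105 in DMSO and 144 in MVC, and B cells 84 and 37; their part in these values was not tested.

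Of 10 type I interferon genes, 4 were higher and 1 lower (median 0.15), but a single MVC cell with 10151 UMIs held 169 of the 192 Rsad2, 58 of the 61 Ifit1, 60 of the 63 Cxcl10 and all 16 Ccl5 UMIs. Isg15, found in 21 DMSO and 26 MVC cells, was at 87.6 and 151 CPM (1.73, 1.21 to 2.48; 1.41, 0.986 to 2.04 without the 7 cells) and in blood endothelial cells at a ratio of 1.55, and the guanylate binding protein Gbp2 at 61.0 and 121 CPM (1.99, 1.31 to 3.06) with a blood endothelial ratio of 1.92. Xaf1 was lower, with 70.6% of its DMSO UMIs in a single cell.

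Cdkn1a, which encodes the cell cycle inhibitor p21, was found in 52 of 72 DMSO and 51 of 77 MVC LECs. It was at 696 and 532 CPM (0.763, 0.654 to 0.891), and at 0.843 (0.706 to 1.01) in the remaining cells, while in blood endothelial cells it was at 1247 and 776 CPM (0.623). Among 14 cell cycle inhibitors and p53 targets, 4 were higher and 0 lower (median 0.02), the higher being Cdkn1c, Trp53inp1, Plk2 and Sesn1. Without the 7 DMSO cells, 2 were higher and 0 lower (median -0.03). The median of this list was -0.27 to 0.13 over 17 alternatives and turned sign under 7 of them. The stress cytokine Gdf15 was at 260 and 315 CPM (1.21, 0.968 to 1.52), in contrast to blood endothelial cells at 155 and 44.3 CPM. Cdkn2b was at 0, and Cdkn2a had 0 DMSO and 1 MVC UMI. Proliferation genes were scarce, with 1 of 12, Pcna, at 20 UMIs (73.5 and 102 CPM), and Mki67 in 2 DMSO and 5 MVC cells.

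Genes that tissue digestion induces had 3 higher and 3 lower of 37 (median -0.06): Fos was at 1145 and 848 CPM (0.741, 0.656 to 0.836), Egr1 at 840 and 916 CPM (1.09, 0.960 to 1.24) and the heat shock gene Hspa1b at 3543 and 3352 CPM (0.946, 0.888 to 1.01). Socs3, a feedback inhibitor of cytokine signalling, was at 651 and 247 CPM (0.379, 0.308 to 0.465; 0.610 without the 7 cells), and Cebpb at 652 and 991 CPM (1.52, 1.33 to 1.74). Glucocorticoid-responsive genes had 1 higher and 3 lower of 11 (median -0.16): the metallothionein Mt1 was at 956 and 201 CPM (0.210, 0.169 to 0.260; 0.535 without the 7 cells), Mt2 at 0.268 (0.911, 0.626 to 1.32 without them), and Fkbp5 at 222 and 97.5 CPM (0.439, 0.311 to 0.612; 0.506). In blood endothelial cells Fkbp5 was at 1.01 and Mt1 at 1.23. Circadian clock genes had 3 higher and 0 lower of 10 (median 0.34), Tef, Nr1d1 and Cry1, at 18, 22 and 48 MVC UMIs, and in blood endothelial cells Tef and Nr1d1 had ratios of 3.37 and 2.71.

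Markers of several other cell types had higher summed levels in the MVC LECs. All 3 fibroblast markers with 20 UMIs were higher (median 2.32), and 1 MVC cell of 8765 UMIs held 237 of the 318 Dcn UMIs and 71 of the 75 Fmod UMIs. The summed fibroblast markers were at 87.6 CPM in DMSO and 782 CPM in MVC, with a cell median of 0 and 85.2 CPM and 52 and 37 cells at 0; in blood endothelial cells the sums were 357 and 805 CPM. Of 3 mural markers 2 were higher and 1 lower (sums of 50.1 and 139 CPM), of the muscle markers 1 reached 20 UMIs, Chodl (sums of 4.69 and 135 CPM), and of the Schwann, tendon and mesothelial markers 2, Fmod and Comp (sums of 12.5 and 221 CPM), with Sox10, Msln, Upk3b and Wt1 at 0. The deepest MVC cell, with 37323 UMIs, was called a doublet and held 19 of the 20 Chodl and all 12 Pax7 UMIs. The part of these cells in other ratios is given by the values for the remaining 59 and 75 cells, which leave out the doublet but not the 2 cells rich in Dcn and Rsad2.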

How the data were processed

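The 2 10x Genomics libraries, 1 DMSO and 1 MVC, held sorted live limb muscle cells. The deposited files hold raw UMI counts per gene and barcode; the submitters' processing notes name Cell Ranger 7.0.0, Seurat 5.0.1 and mm10. The cell filter stated by the study (at least 500 genes, at most 10% mitochondrial UMIs) left 5437 and 5454 of 5812 and 6047 barcodes. UMIs of rows sharing a symbol were summed (32285 rows, 32245 symbols), and 32158 IDs were found in GENCODE vM21.

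UMIs were summed over the chosen cells of each library and scaled to CPM. Ratios have exact conditional 95% intervals, single shares exact Clopper-Pearson ones and differences of shares Newcombe ones; intervals and floors cover counting error only. With 1 library per group, called means past a fold: 2-fold with at least 50 UMIs, 1.5-fold with at least 20 UMIs for 23 gene lists (medians use a pseudocount of 10 CPM), and 4-fold against blood endothelial cells in both libraries. Named genes were the list members, the 12 highest and 12 lowest MVC to DMSO ratios (interval excluding 1, no cell over 25% of UMIs) and the 25 highest and 15 lowest ratios to blood endothelial cells. Genes of the Lyve1 split, ranked in DMSO by the interval bound nearest to 1, needed 30 UMIs. Doublets were called against simulated ones (2 per cell, 50 neighbours, 0.8% per 1000 cells; 236 DMSO and 238 MVC calls) and were kept in the main values; clusters used 2000 variable genes, 30 components and Leiden resolution 1.0. Python 3.11.15, scipy 1.17.1 and leidenalg 0.10.2 were used; the ratio code was tested on simulated data. The cells, lists and comparisons were chosen with earlier results of these data known. A few genes of the lists are not reported here.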

Additional observations from a re-analysis of the deposited data

Results flagged for a closer look

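Among the named genes, 4 had MVC to DMSO ratios of opposite direction in LECs and in blood endothelial cells, each with counting intervals excluding 1 in both; with 1 library per group the difference itself was not tested beyond counting error. For Il33 the ratio was 0.122 in LECs and 3.09 in blood endothelial cells, a ratio of ratios of 0.0399 (0.0284 to 0.0561), and 1.22 in LECs without the 7 DMSO cells. For Sdk1, with 0 MVC UMIs in LECs, it was 0.00381 (0.000236 to 0.0614), a value that depends on the 0.5 counts added to each of its 4 counts and is no bound; the blood endothelial ratio was 1.54 (1.35 to 1.76), and without the 7 cells the LECs held 6 DMSO and 0 MVC UMIs (interval up to 0.869). For Jam3 it was 0.127 (0.0668 to 0.240), with a blood endothelial ratio of 1.62 (1.39 to 1.88) and an LEC ratio of 0.536 (0.233 to 1.16) without the 7 cells. For Sema3a it was 0.117 (0.0819 to 0.168): the blood endothelial level went from 5.15 to 10.6 CPM, while the LEC ratio was 0.239, and 0.355 (0.300 to 0.419) without the 7 cells.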

How the results depend on the processing

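The counts of genes past 2-fold, 114 higher and 191 lower, were 338 and 466 with at least 20 UMIs, 48 and 85 with at least 100 UMIs, and 19 and 26 after thinning each cell to 2000 UMIs, which tested 1137 genes; 91 genes were then 4-fold above blood endothelial cells, against 168. Without the 7 DMSO cells, an alternative chosen after seeing the data, 87 were lower, and 65 after also removing called doublets and LECs outside the main cluster. The difference in share was 0.623 points with endothelial cells as the denominator. Among 39 named genes, the log2 ratio of Pdpn turned to -0.11 after thinning, the log2 ratio of Il33 to 0.26 without the 7 cells and 0.66 in the remaining cells, and the log2 ratio of Selp to 0.43 in the remaining cells; 33 of the 36 whose interval excluded 1 kept their sign under all 16 alternatives. The 39 include the 12 highest and 12 lowest ratios, picked in these same data with intervals excluding 1, and the 7 choosing genes. The count of kept signs is therefore a description. Over all lists and alternatives, 222 medians moved by less than the counting spread and 123 by more. The medians of 9 of 21 lists turned sign under at least 1 alternative, among them blood endothelial genes (-1.07 to 0.78 over 17 alternatives) and chemokine and adhesion genes (-0.24 to 0.30). No paired analysis was possible because each group had 1 library. Depth limits genes with few UMIs, and 149 cells limit shares.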
